A study of Mus musculus with 24 samples.

Results

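Week 3 was compared with day 1 of control feeding in subcutaneous adipose tissue of mice, a white fat depot beneath the skin. The libraries were chosen by diet and time alone, and 8 of the 24 small RNA libraries of the series entered: 4 from mice fed the control diet for 3 weeks and 4 from mice fed it for 1 day. All 1907 miRNAs of the table were included, of which 440 had no count in any library and 558 passed the filter on low counts and were tested. All mice of this comparison were on the control diet, and no other treatment, genotype or transgene is stated. The sources used here do not give strain, sex, age or the composition of the diets. The control series asks how the miRNA profile of the tissue moved with time when the diet was not enriched in fat, which is the background to the series' question about DICER during high-fat feeding. The 4 high-fat libraries of week 3 and the 4 of day 1, from mice given the high-fat diet for the same times, were used to see whether a time difference recurred in libraries of another diet. Time on the diet, age of the mice and day of collection cannot be told apart.

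MicroRNAs (miRNAs) are RNAs of about 22 bases. A hairpin precursor is cut by the nuclease Drosha and then by DICER, which leaves a duplex of a 5p and a 3p arm. Argonaute proteins keep one arm, the guide, and its bases 2 to 8, the seed, pair with sites in messenger RNAs and lower their output. Hairpins often lie in clusters that are transcribed together, and families with 1 seed can come from several clusters. In fat, miRNAs of the let-7, miR-322 and miR-26 families are known from studies of precursor growth and adipocyte maturation.

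The libraries held 4862462 to 7096603 counts at week 3 and 5357554 to 11318325 counts at day 1. Between 894 and 1009 miRNAs had a count at week 3 and between 875 and 1062 at day 1. Levels are CPM, the counts of each library scaled to a common total by the TMM method, and 3 counts, the limit that a count of 0 allows, corresponded to 0.248 to 0.661 CPM. Differences are log2 fold changes, week 3 over day 1, with their SE from edgeR's quasi-likelihood fit. A miRNA was called at a Benjamini-Hochberg adjusted p under 0.05 over the 558 tested miRNAs. Whether replicate libraries stem from different mice is not stated in the labels, and the p-values then reflect the scatter among the sampled libraries, part or all of which may be technical. The defining markers of adipocytes are messenger RNAs, which small RNA libraries do not read, so the tissue label could be set only against miRNAs. Of the counts, 16.8% at week 3 and 19.1% at day 1 were miR-148a-3p, a miRNA of maturing adipocytes. The next were miR-143-3p (12.8% at week 3 and 11.5% at day 1), which pericytes and smooth muscle make, and miR-126a-3p of vessel endothelium (9.60% at week 3 and 8.15% at day 1).

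The mature sequences that carry the comparison are printed 5′ to 3′ from RefSeq (GRCm38.p6), with the seed in capitals. The first set holds the pair of miRNAs that passed the adjusted threshold, both lower at week 3 and both from the X chromosome, with the miR-322-5p seed family and the members of the miR-322 and miR-503 cluster that stood nearest to them.
miR-452-5p: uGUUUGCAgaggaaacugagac
miR-322-5p: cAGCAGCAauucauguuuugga
miR-497a-5p: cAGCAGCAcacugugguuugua
miR-195a-5p: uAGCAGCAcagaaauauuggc
miR-16-5p: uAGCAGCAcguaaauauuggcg
miR-15a-5p: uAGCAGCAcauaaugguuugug
miR-15b-5p: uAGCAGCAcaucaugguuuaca
miR-351-5p: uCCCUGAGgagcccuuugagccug
miR-125a-5p: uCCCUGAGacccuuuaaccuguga
miR-125b-5p: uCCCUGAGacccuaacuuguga
miR-450b-5p: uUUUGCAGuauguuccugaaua
MiR-322-5p, miR-497a-5p, miR-195a-5p, miR-16-5p, miR-15a-5p and miR-15b-5p share the seed AGCAGCA but differ in the bases after it. MiR-351-5p shares CCCUGAG with miR-125a-5p and miR-125b-5p.

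The second set shows miRNAs with low values at week 3 outside that cluster, which have AU-rich sequences in several cases.
miR-369-3p: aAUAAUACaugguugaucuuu
miR-340-5p: uUAUAAAGcaaugagacugauu
miR-350-3p: uUCACAAAgcccauacacuuuc
miR-344b-3p: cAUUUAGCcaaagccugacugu
miR-26b-5p: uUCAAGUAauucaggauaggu
miR-26a-5p: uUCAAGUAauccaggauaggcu
miR-362-3p: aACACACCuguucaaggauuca
miR-501-5p: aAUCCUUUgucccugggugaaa
The third set shows miRNAs with high values at week 3, among them the let-7 guides, which share the seed GAGGUAG, and both arms of miR-139.
let-7d-5p: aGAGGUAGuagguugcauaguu
let-7b-5p: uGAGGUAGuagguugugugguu
let-7f-5p: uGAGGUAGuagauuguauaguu
let-7i-5p: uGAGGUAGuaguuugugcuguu
let-7g-5p: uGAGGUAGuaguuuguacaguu
let-7b-3p: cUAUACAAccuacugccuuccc
let-7d-3p: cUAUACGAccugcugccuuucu
miR-23b-5p: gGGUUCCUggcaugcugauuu
miR-345-3p: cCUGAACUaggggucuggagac
miR-674-3p: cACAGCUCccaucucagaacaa
miR-744-5p: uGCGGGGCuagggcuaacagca
miR-106b-3p: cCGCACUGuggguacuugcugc
miR-504-5p: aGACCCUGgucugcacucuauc
miR-139-5p: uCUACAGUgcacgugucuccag
miR-139-3p: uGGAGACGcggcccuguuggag

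MiR-452-5p and miR-322-5p fell at week 3, and no miRNA rose past the adjusted threshold. The 2 called miRNAs were 0.358% of those tested by edgeR's quasi-likelihood test with Benjamini-Hochberg adjustment, and 83 (14.9%) had an unadjusted p under 0.05. Of these 83, 42 were higher (7.53% of those tested) and 41 lower (7.35%) at week 3. With scaling that left out the 5 most abundant miRNAs, the split of unadjusted calls was 22 higher and 57 lower, and the median fold change of all tested miRNAs was −0.00 in place of 0.09. Fold changes near 0 therefore depend on the scaling. Without week 3 replicate 1, the library highest in muscle miRNAs, 66 miRNAs had an unadjusted p under 0.05, 22 higher and 44 lower, and none passed the adjusted threshold. The week 3 and day 1 libraries did not overlap for 42 miRNAs (7.53%), of which 21 (3.76%) lay above and 21 (3.76%) below. In all, 317 miRNAs (56.8%) had a positive and 241 (43.2%) a negative fold change.

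**Figure D1:**
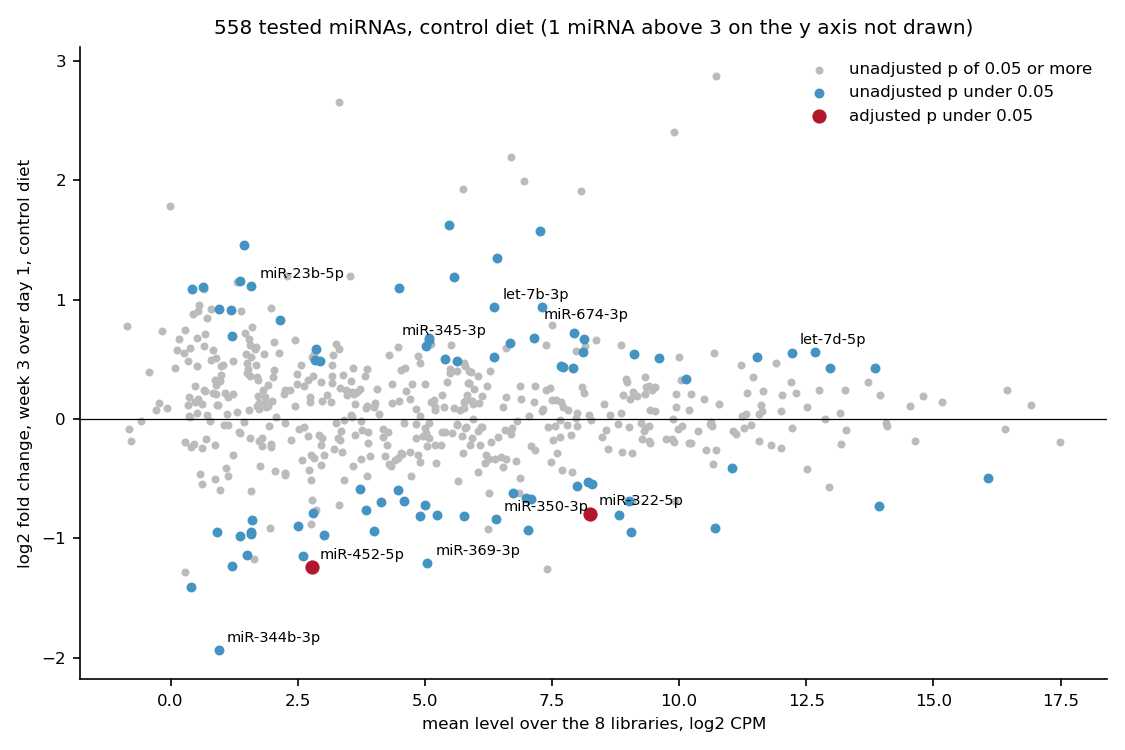
Log2 fold change (week 3 over day 1, control diet) against the mean level over the 8 libraries (log2 CPM); each point is 1 tested miRNA, and labels mark the 5 miRNAs with the smallest p in each direction. The 2 called miRNAs, miR-452-5p at −1.24 and miR-322-5p at −0.79, both lie below 0. A tested miRNA with a log2 fold change of 5.06 is not drawn.

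MiR-452-5p comes from an intron of Gabre, which encodes a subunit of the GABA-A receptor (chrX:72262224-72262308, minus strand, GRCm38, the assembly called mm10). Its level was 3.96, 3.55, 5.01 and 3.63 CPM at week 3, against 6.78, 11.8, 11.6 and 8.35 CPM at day 1. All 4 week 3 libraries lay below all 4 day 1 libraries. The log2 fold change was −1.24 ± 0.26 (adjusted p = 0.0288, edgeR), with a 95% interval of −1.79 to −0.69. At week 1 of the control diet the libraries held 6.24, 5.25, 3.51 and 6.64 CPM, all below the lowest day 1 library and overlapping with week 3. In the high-fat libraries miR-452-5p stood at 9.01, 4.51, 5.18 and 7.29 CPM at week 3 and 8.76, 4.95, 7.94 and 7.40 CPM at day 1, which overlapped, with a fold change of −0.18 ± 0.27. The difference between diets, high-fat minus control, was 1.06 ± 0.37 on the log2 scale, with an unadjusted p of 0.00920 and an adjusted p of 0.991 (edgeR). Its partner in the Gabre intron, miR-224-5p (chrX:72261031-72261112), had 196, 147, 225 and 174 CPM at week 3, against 156, 255, 180.4 and 179.9 CPM at day 1. These groups overlapped, and the fold change was −0.06 ± 0.22; it was 0.02 once the trend of each library with GC content was removed. The miR-452-5p call rested on low counts, and it did not pass without week 3 replicate 1, 2 or 4 or without day 1 replicate 2 or 3, where the fold change lay between −1.28 and −1.10. It was also lost in a fit of the 8 libraries alone and with no filter on low counts. The call was lost as well with replicate number as a block and with the GC trend removed. Over the alternatives that kept all 8 libraries the adjusted p ranged from 0.00463 (DESeq2) to 0.121 (edgeR, the 8 libraries alone).

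MiR-322-5p, the mouse counterpart of human miR-424, is known from mouse and human cells as an inhibitor of cell cycle genes. Its hairpin is intergenic on the X chromosome (chrX:53054255-53054349, minus strand). The level was 192, 199, 184 and 315 CPM at week 3, against 319, 419.8, 454 and 348 CPM at day 1. Week 3 replicate 4 was well above the other week 3 libraries and just under the lowest day 1 library, so the groups did not overlap. The log2 fold change was −0.79 ± 0.17 (adjusted p = 0.0288, edgeR; 95% interval −1.14 to −0.44). Without week 3 replicate 4 it was −1.07. At week 1 of the control diet the libraries held 201, 226, 194 and 204 CPM, all below every day 1 library. The high-fat libraries held 230.4, 234, 229 and 188 CPM at week 3 and 288, 301, 308 and 269 CPM at day 1, a fold change of −0.40 ± 0.17 that was not called. The other arm, miR-322-3p, had 286, 263, 181 and 191 CPM at week 3, against 250.5, 165, 268 and 192 CPM at day 1. These ranges overlapped, with a fold change of 0.07 ± 0.27 whose sign turned with scaling without the 5 most abundant miRNAs, with no filter on low counts and without week 3 replicate 1 or day 1 replicate 2 or 4. The miR-322-5p call did not pass without week 3 replicate 1, 2 or 3 or without day 1 replicate 2 or 3. It too was lost in a fit of the 8 libraries alone and with no filter. The same held with replicate number as a block and with the GC trend removed. The adjusted p ran from 0.000790 (DESeq2) to 0.190 (edgeR, the 8 libraries alone) over the alternatives that kept all 8 libraries.

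Its 5 relatives with the seed AGCAGCA did not show a fall of this size. The 6 tested members of the seed family all had negative fold changes, with a median of −0.07 against 0.09 over all tested miRNAs, but apart from miR-322-5p they lay between −0.10 and −0.01. As an example, miR-16-5p, a long-known brake on the cell cycle, had 736, 2027, 1972 and 1407 CPM at week 3, against 1851, 1358, 1919.8 and 1176 CPM at day 1. These ranges overlapped almost fully, and week 3 replicate 1 was the lowest of the 8 libraries.

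The miR-322 and miR-503 cluster on the X chromosome encodes miR-322, miR-503, miR-351, miR-542, miR-450a and miR-450b. Of its 13 names, 11 were tested, and 7 of these had negative and 4 positive fold changes, with a median of −0.37. Over all tested miRNAs 43.2% were negative and the median was 0.09. MiR-322-5p was called, and miR-450b-5p and miR-351-5p had unadjusted p under 0.05. These 3 of the 11 were also the members with every week 3 library below day 1. Of all tested miRNAs, 0.358% were called, 7.35% were unadjusted and lower, and 3.76% lay below. MiR-450b-5p (chrX:53047997-53048078) stood at 14.5, 13.4, 10.1 and 15.99 CPM at week 3, against 22.8, 20.3, 16.7 and 27.6 CPM at day 1. All week 3 libraries lay below day 1, with a fold change of −0.70 ± 0.21 (adjusted p = 0.152, edgeR). MiR-351-5p (chrX:53053255-53053353) stood at 89.4, 132, 74.1 and 122 CPM at week 3, against 139.5, 176, 195 and 155 CPM at day 1. Here too the groups did not overlap, and the fold change was −0.67 ± 0.24 (adjusted p = 0.205, edgeR). In the high-fat libraries the fold changes were −0.74 ± 0.22 for miR-450b-5p and −0.79 ± 0.24 for miR-351-5p. MiR-503-5p, which is known to act on cell cycle genes as miR-322-5p does, had 47.8 to 63.7 CPM at week 3 and 49.1 to 57.1 CPM at day 1, ranges that overlapped, with a fold change of 0.14 ± 0.26. The median was −0.62 without week 3 replicate 4 and lay between −0.58 and −0.29 without any other single library.

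A further X-linked group lies in introns of Clcn5, a chloride channel gene. Of its 8 tested members, 6 had negative fold changes (median −0.14), where 43.2% of all tested miRNAs were negative (median 0.09). The only 2 with an unadjusted p under 0.05, both lower, were miR-362-3p and miR-501-5p. They were also the only 2 with every week 3 library below day 1. Of all tested miRNAs, 7.35% were unadjusted and lower, and 3.76% lay below. MiR-362-3p (chrX:7241982-7242046) held 60.1, 89.2, 107 and 80.0 CPM at week 3, against 128, 142, 135 and 111 CPM at day 1. The highest week 3 library was just below the lowest day 1 library, and the fold change was −0.62 ± 0.20 (adjusted p = 0.162, edgeR). MiR-501-5p, at low counts, held 1.76, 2.73, 2.13 and 1.45 CPM at week 3, against 3.47, 4.74, 3.42 and 4.18 CPM at day 1, again without overlap, with −0.94 ± 0.31 (adjusted p = 0.164, edgeR). Over the whole X chromosome, 28 of 50 tested miRNAs had negative and 22 positive fold changes. Their median was −0.05, against 0.09 over all tested miRNAs, of which 43.2% were negative.

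**Figure D2:**
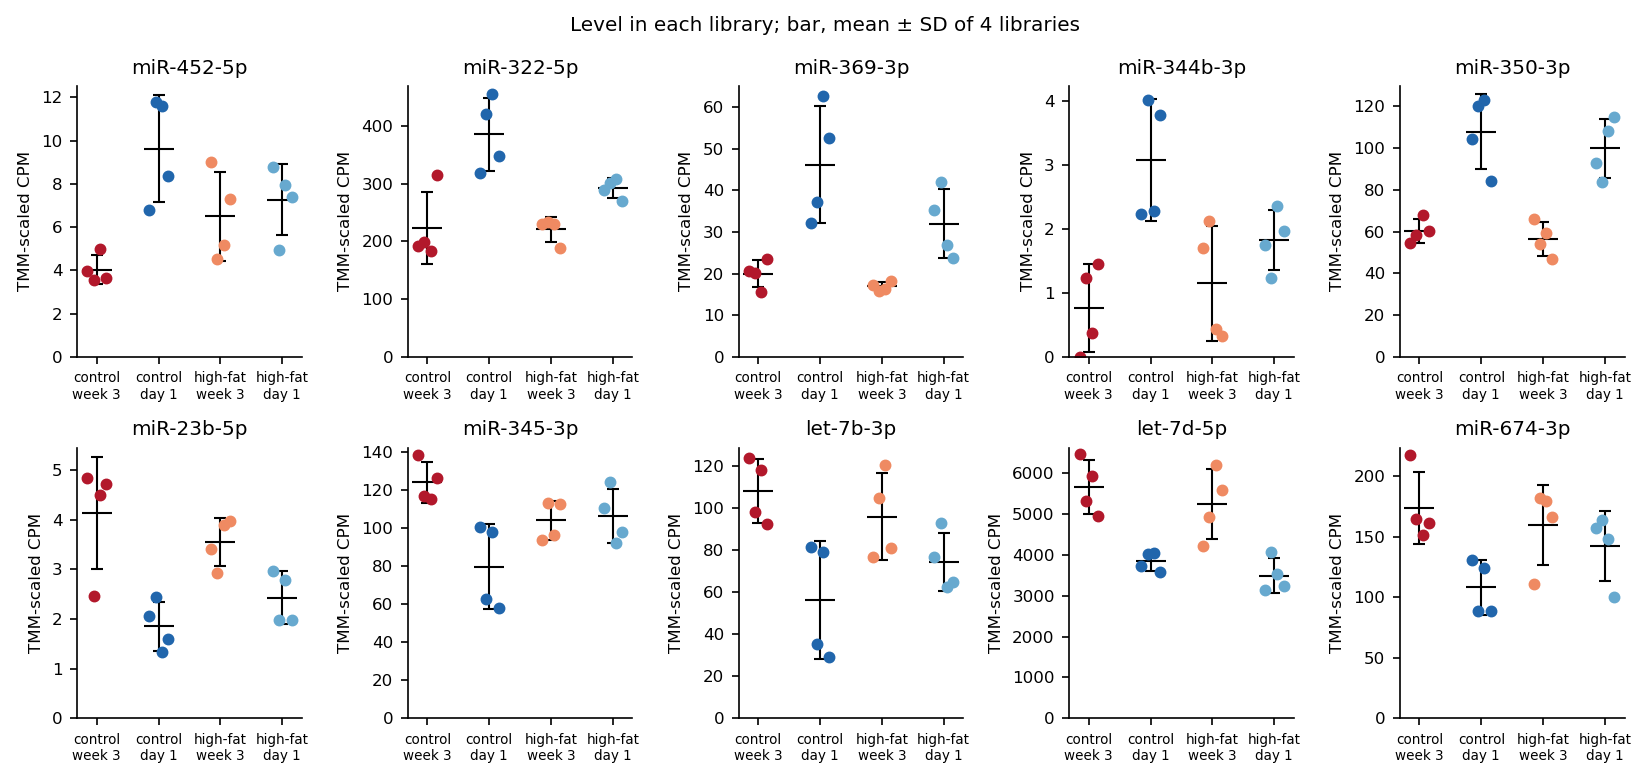
Levels in TMM-scaled CPM of the 10 miRNAs with the smallest p, 5 lower in the top row and 5 higher in the bottom row, in control week 3, control day 1, high-fat week 3 and high-fat day 1 libraries. Points are libraries and bars the mean ± SD of 4. The control groups overlap for none of the 10, which largely follows from their choice by small p in these control libraries. Over all tested miRNAs the control groups did not overlap for 7.53%. The high-fat groups overlap for 6 of the 10, miR-452-5p and miR-345-3p included. Over all tested miRNAs the high-fat groups did not overlap for 11.6%.

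The next miRNA by p was miR-369-3p of the Dlk1-Dio3 region, a block of imprinted miRNA genes on chromosome 12 that is expressed from the maternal copy and is most active before birth. The hairpin lies in an exon of the non-coding gene Mirg (chr12:109743418-109743496, plus strand). MiR-369-3p stood at 20.7, 20.2, 15.5 and 23.4 CPM at week 3, against 32.2, 37.2, 62.7 and 52.7 CPM at day 1. All week 3 libraries were below all day 1 libraries. The fold change was −1.21 ± 0.28, with an adjusted p of 0.0507 (edgeR), just over the threshold, and the high-fat libraries gave −0.92 ± 0.28. DESeq2 and limma-voom called it, with adjusted p of 0.00669 and 0.0114.

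Over the Dlk1-Dio3 region 73 of 116 miRNAs were tested, and 60 had negative and 13 positive fold changes, with a median of −0.28 against 0.09 over all tested miRNAs. None was called by edgeR, and 16 had an unadjusted p under 0.05, all lower, where 7.35% of all tested miRNAs were unadjusted and lower. Week 3 lay below day 1 in every library for 3 of the 73, where this held for 3.76% of all tested miRNAs. The 3 were miR-369-3p, miR-127-5p and miR-300-3p, so separated libraries were about as frequent in the region as elsewhere. Besides miR-369-3p, limma-voom called miR-3071-3p (−1.27, adjusted p = 0.0322), for which edgeR gave a fold change of −0.94. MiR-377-5p held 2.86, 4.64, 1.88 and 5.63 CPM at week 3, against 5.87, 5.601, 10.1 and 11.9 CPM at day 1, with a fold change of −1.14 ± 0.36. The highest week 3 library lay between the lowest pair of day 1 libraries, and the other 3 lay below every day 1 library. MiR-127-5p, from a hairpin antisense to Rtl1, held 92.7, 97.7, 48.2 and 122 CPM at week 3, against 148, 141, 193 and 205 CPM at day 1, without overlap, with −0.93 ± 0.36. MiR-300-3p held 108, 97.7, 66.0 and 121 CPM at week 3, against 129, 146, 155 and 189 CPM at day 1, also without overlap, with −0.66 ± 0.25. MiR-376c-3p held 13.7, 9.82, 8.51 and 10.4 CPM at week 3, against 10.995, 20.3, 20.0 and 20.5 CPM at day 1; day 1 replicate 1 was as low as the week 3 libraries, and the fold change was −0.76 ± 0.27.

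The 2 most abundant tested members of the region did not share these sizes. MiR-379-5p held 1227, 1597, 737 and 1798 CPM at week 3, against 1441, 1183, 1988 and 1810.4 CPM at day 1, with −0.26 ± 0.32. MiR-381-3p held 1276, 987, 518 and 1601 CPM at week 3, against 1111, 859, 1418 and 1644 CPM at day 1, with −0.20 ± 0.45. Both overlapped over most of their ranges, and week 3 replicate 3 was the lowest library for both. The block from miR-379 to miR-410 had 42 of 48 tested members with negative fold changes (median −0.31), and the block from miR-770 to miR-136 had 14 of 20 (median −0.30). The regional median moved between −0.50 without week 3 replicate 1 and −0.20 without week 3 replicate 3. In the high-fat libraries 57 of the 73 members had negative fold changes (median −0.30), and 10 had an unadjusted p under 0.05, all lower, where 6.27% of all tested miRNAs were unadjusted and lower on that diet. Whether fewer cells that express the region or less RNA per cell underlie a bulk level cannot be told apart here or for any other group of miRNAs.

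Other miRNAs with low values at week 3 came from scattered loci. MiR-350-3p, in an intron of Cep170, which encodes a centrosome protein (chr1:176772325-176772423), held 54.4, 58.2, 67.9 and 60.5 CPM at week 3, against 104, 120.2, 123 and 84.1 CPM at day 1. The groups did not overlap, and the fold change was −0.84 ± 0.24 (adjusted p = 0.150, edgeR), close to −0.82 ± 0.24 in the high-fat libraries. MiR-344b-3p (chr7:61790519-61790581), near the detection limit, held 0, 1.23, 0.376 and 1.45 CPM at week 3, against 2.23, 4.02, 2.28 and 3.78 CPM at day 1. Week 3 replicate 1 had no count, and the groups did not overlap, with −1.94 ± 0.55 (adjusted p = 0.148, edgeR).

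MiR-26b-5p, known to promote human adipocyte differentiation, lies in an intron of Ctdsp1 (chr1:74394310-74394394). It held 10266, 10932, 12002 and 13989 CPM at week 3, against 18516, 18222, 25043 and 16244 CPM at day 1. Every week 3 library was below every day 1 library, and the fold change was −0.73 ± 0.24 (adjusted p = 0.172, edgeR). MiR-26a-5p, with the same seed, had a fold change of −0.59 ± 0.28 at a level of 12.3 to 21.1 CPM at week 3 and 17.3 to 41.4 CPM at day 1. MiR-26a-5p has 2 hairpins, and no source used here says how reads with several genomic matches were counted, so its low level is uncertain.

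MiR-340-5p, in an intron of Rnf130 (chr11:50069702-50069799), held 779, 1512, 1067 and 1286 CPM at week 3, against 2436, 1832, 2641 and 1851 CPM at day 1, without overlap, with −0.92 ± 0.31 (adjusted p = 0.181, edgeR). MiR-186-5p, in an intron of Zranb2 (chr3:157544279-157544349), held 349, 355, 369.8 and 247 CPM at week 3, against 616, 521, 725 and 439 CPM at day 1, again without overlap, with −0.80 ± 0.32. MiR-21a-5p, one of the 5 most abundant miRNAs and known from inflamed and fibrotic tissue, overlaps an exon of Vmp1 (chr11:86584067-86584158). It held 52929, 58812, 52207 and 64994 CPM at week 3, against 72711, 82817, 80836 and 85323 CPM at day 1. All week 3 libraries were below all day 1 libraries, with −0.49 ± 0.18 (adjusted p = 0.225, edgeR). At week 1 of the control diet it held 95937, 66275, 54855 and 58314 CPM, with 1 library above all day 1 libraries. MiR-145a-5p of smooth muscle and pericytes held 2048, 1660.0, 1439 and 2118 CPM at week 3, against 2104, 2526, 2563 and 2466 CPM at day 1, with −0.41 ± 0.18, and the groups overlapped by 1 library.

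Among the epithelial miRNAs, markers of another cell type, 3 of 13 tested members had an unadjusted p under 0.05, all lower, where this held for 7.35% of all tested miRNAs. They were both arms of miR-141 and miR-200a-5p. MiR-141-5p (chr6:124717914-124717985) held 17.0, 18.4, 18.5 and 32.5 CPM at week 3, against 25.8, 42.8, 38.02 and 44.9 CPM at day 1, with −0.81 ± 0.27. Week 3 replicate 4 was high and overlapped the day 1 range. MiR-141-3p held 485, 274, 413 and 418 CPM at week 3, against 413, 732, 721 and 687 CPM at day 1, with −0.68 ± 0.31, and day 1 replicate 1 lay inside the week 3 range. MiR-200a-5p held 193, 206, 144 and 281 CPM at week 3, against 232, 294, 329 and 358 CPM at day 1, with −0.56 ± 0.27, and week 3 replicate 4 overlapped the day 1 range. Of the 13, 7 had negative and 6 positive fold changes (median −0.05, with −0.33 without day 1 replicate 1 and 0.02 without day 1 replicate 4), and their summed level was 15184 to 21463 CPM at week 3 and 13419 to 19116 CPM at day 1. The part of epithelial cells in these values was not tested.

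At the other end, the let-7 family, which is known to restrain growth and glucose handling in several mouse tissues, leaned to higher values at week 3. Of 21 tested members 20 had positive fold changes, with a median of 0.24 against 0.09 over all tested miRNAs. None was called, and 5 had an unadjusted p under 0.05, all higher, where 7.53% of all tested miRNAs were unadjusted and higher. With scaling that left out the 5 most abundant miRNAs the median was 0.15, with 19 positive. The 9 guides with the seed GAGGUAG were all positive, from 0.05 to 0.56 (median 0.21), and in the high-fat libraries all 9 were positive as well (median 0.28). Of all 21 members, 17 were positive and 4 negative in the high-fat libraries (median 0.23), where 50.9% of all tested miRNAs were positive.

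Let-7d-5p (chr13:48536012-48536114, in an exon of a non-coding gene) held 6453, 5304, 5914 and 4938 CPM at week 3, against 3719, 4027, 4045 and 3581 CPM at day 1. The lowest week 3 library was above the highest day 1 library. The fold change was 0.56 ± 0.16 (adjusted p = 0.152, edgeR), and 0.58 ± 0.16 in the high-fat libraries. Let-7d-3p, the other arm of the hairpin, held 1392, 1190.4, 1249 and 1173 CPM at week 3, against 1077, 935, 1048 and 896 CPM at day 1, also without overlap, with 0.34 ± 0.14. Let-7b-3p (chr15:85707319-85707403, in an exon of Lncppara) held 124, 98.1, 118 and 92.7 CPM at week 3, against 81.8, 35.2, 79.1 and 29.4 CPM at day 1. Day 1 replicates 2 and 4 were far lower than the other 6 libraries, and day 1 replicates 1 and 3 came close to the week 3 range. Its fold change was 0.94 ± 0.27 (adjusted p = 0.150, edgeR), but between 0.68 and 1.15 when single libraries were left out. The guide let-7b-5p held 18584, 16441, 17382 and 14978 CPM at week 3, against 11402, 14082, 13293 and 11226 CPM at day 1, without overlap, with 0.43 ± 0.20. Let-7f-5p, from 2 hairpins, held 6970.5 to 11122 CPM at week 3 and 6081 to 7569 CPM at day 1, with 0.42 ± 0.18 and an overlap of 1 week 3 library with day 1. The most abundant members, let-7i-5p and let-7g-5p, had 0.14 ± 0.17 and 0.19 ± 0.12. Near-identical let-7 members can share reads, so the split of counts within the family is uncertain.

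MiR-23b-5p had the smallest p of the higher miRNAs. It comes from the miR-23b/27b/24-1 cluster (chr13:63300484-63300557) and held 4.85, 2.46, 4.51 and 4.73 CPM at week 3, against 2.07, 2.44, 1.33 and 1.59 CPM at day 1 at low counts. Week 3 replicate 2 was barely above the highest day 1 library, and the fold change was 1.11 ± 0.31 (adjusted p = 0.148, edgeR). The far more abundant arm miR-23b-3p had 0.24 ± 0.13, and all 5 tested members of the cluster had positive fold changes (median 0.24). MiR-345-3p, in an exon of Slc25a47, a mitochondrial carrier gene (chr12:108836973-108837068), held 138, 117, 115 and 126 CPM at week 3, against 101, 62.9, 97.7 and 57.9 CPM at day 1. The groups did not overlap, with 0.64 ± 0.18 (adjusted p = 0.148, edgeR). In the high-fat libraries it held 93.5, 113, 96.5 and 113 CPM at week 3 and 111, 124, 92.3 and 98.1 CPM at day 1, a fold change of −0.03 ± 0.18. The difference between diets was −0.67 ± 0.25, with an unadjusted p of 0.0140 and an adjusted p of 0.991 (edgeR). MiR-674-3p (chr2:117185127-117185226) held 217, 164, 151 and 161 CPM at week 3, against 131, 88.6, 125 and 88.9 CPM at day 1, without overlap, with 0.68 ± 0.20 (adjusted p = 0.152, edgeR).

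Several further miRNAs lay above day 1 in every week 3 library. MiR-744-5p, in an intron of Map2k4, a stress kinase gene, held 353, 332, 335 and 291 CPM at week 3, against 248, 220.0, 208 and 215 CPM at day 1, with 0.56 ± 0.18 (adjusted p = 0.172, edgeR). MiR-139-5p, in an intron of the phosphodiesterase gene Pde2a, held 4331, 2966, 3444 and 3212 CPM at week 3, against 2689, 2389.5, 2356 and 2307 CPM at day 1, with 0.52 ± 0.18 (adjusted p = 0.181, edgeR). MiR-139-3p, its other arm, held 45.6, 39.0, 36.9 and 35.1 CPM at week 3, against 25.3, 26.3, 27.2 and 23.7 CPM at day 1, with 0.61 ± 0.25. For miR-139 the libraries of both arms were thus separated in the same direction. MiR-106b-3p, in an intron of the replication gene Mcm7, held 289, 428, 365 and 292 CPM at week 3, against 277, 159.8, 261 and 163 CPM at day 1, with 0.67 ± 0.23 (adjusted p = 0.190, edgeR). MiR-143-5p, the less abundant arm of the smooth muscle miR-143, held 1052, 863, 779 and 970.3 CPM at week 3, against 642, 672, 616 and 644 CPM at day 1, with 0.51 ± 0.18, while miR-143-3p held 155944, 134574, 98227 and 127656 CPM at week 3, against 117627, 69816, 197022 and 91000.2 CPM at day 1, with 0.12 ± 0.23. The 3p arm thus varied more among day 1 libraries than between the times. MiR-504-5p, in an intron of Fgf13, held 53.3, 25.9, 20.3 and 23.1 CPM at week 3, against 16.2, 9.48, 11.6 and 19.7 CPM at day 1, with 1.10 ± 0.34, and 0.64 without week 3 replicate 1.

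Week 3 replicate 1 stood apart in several tissue markers. The skeletal muscle miRNAs summed to 2201 to 13394 CPM at week 3 and 133 to 2421 CPM at day 1. All 6 tested members had positive fold changes (median 2.30), but none had an unadjusted p under 0.05. MiR-1a-3p, the main miRNA of skeletal muscle and heart, held 7720.0, 706, 1619 and 1932 CPM at week 3, against 291, 35.6, 338 and 967 CPM at day 1, with 2.88 ± 1.58. MiR-206-3p, found in skeletal muscle and its satellite cells, held 3427, 2000.4, 842 and 159.9 CPM at week 3, against 141, 69.4, 203 and 804 CPM at day 1, with 2.40 ± 1.59. Week 3 replicate 1 was the highest of the 8 libraries for both, day 1 replicate 4 the highest of its group, and the ranges overlapped. Without week 3 replicate 1 the fold changes were 1.76 for miR-1a-3p and 1.66 for miR-206-3p. Without that library the filter kept 7 members, with a median of 0.66, so this median does not cover the same miRNAs. The high-fat libraries gave a median of 2.28 for the 6 miRNAs.

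The same library was the highest for several miRNAs that are not on the muscle list. MiR-149-5p held 542, 121, 178 and 82.5 CPM at week 3, against 83.0, 53.6, 67.9 and 106 CPM at day 1, with 1.57 ± 0.56, and 0.66 without week 3 replicate 1. MiR-181a-2-3p held 152, 39.3, 54.8 and 23.3 CPM at week 3, against 24.7, 14.8, 17.9 and 29.8 CPM at day 1, with 1.62 ± 0.49, and 0.79 without it. MiR-335-3p, in an intron of Mest, a gene known to mark fat expansion in mice, held 235, 106, 44.8 and 108 CPM at week 3, against 50.02, 37.9, 55.1 and 50.1 CPM at day 1, with 1.35 ± 0.54, and 0.79 without it. MiR-22-3p held 12971, 5877, 7345 and 4809.6 CPM at week 3, against 4498, 5787, 4961 and 5769.7 CPM at day 1, with 0.56 ± 0.25, and 0.14 without it. MiR-378a-5p, in an intron of Ppargc1b, a gene of mitochondrial metabolism, held 467, 257, 299 and 193 CPM at week 3, against 195, 181, 148 and 213.9 CPM at day 1, with 0.72 ± 0.32, and 0.38 without it, while the abundant arm miR-378a-3p had 0.20 ± 0.23. None of these was called, and the part of muscle in their values was not tested.

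All 6 tested erythrocyte miRNAs had positive fold changes (median 0.78), and their sum was 2271 to 5003 CPM at week 3 and 1986 to 3585 CPM at day 1. MiR-451a, which is matured without DICER, held 2128, 2342, 1705 and 4143 CPM at week 3, against 1650.2, 2386, 2994 and 3005 CPM at day 1, with 0.04 ± 0.30, and its sign turned with the scaling. MiR-144-3p from the same cluster held 284, 325, 221 and 540.3 CPM at week 3, against 178, 187, 307 and 223 CPM at day 1, with 0.61 ± 0.33. MiR-486a-5p, known from red cells and muscle, held 338, 166, 163 and 165 CPM at week 3, against 82.3, 112, 64.8 and 176 CPM at day 1, with 0.94 ± 0.43, and miR-486b-5p had 1.19 ± 0.54, or 0.64 without week 3 replicate 1. The near-identical miR-486 copies can share reads. The groups overlapped for each of the 6. Of 12 tested leukocyte miRNAs 7 had negative and 5 positive fold changes (median −0.03, with −0.36 without week 3 replicate 3 and 0.11 without week 3 replicate 1). Week 3 lay below day 1 in every library for 2 of the 12, where this held for 3.76% of all tested miRNAs. One was miR-146a-3p, the only one of the 12 with an unadjusted p under 0.05, which held 0.440, 0.818, 0.876 and 0.727 CPM at week 3, against 2.65, 2.01, 1.71 and 1.39 CPM at day 1, near the detection limit, with −1.41 ± 0.59. The other was miR-223-5p of neutrophils and monocytes, which held 84.6, 98.8, 103 and 101 CPM at week 3, against 108, 124, 113 and 149.9 CPM at day 1, with −0.35 ± 0.20. MiR-142a-3p, the general leukocyte miRNA, held 1048, 8692, 8705 and 7057 CPM at week 3, against 11543, 6154, 13672 and 6467 CPM at day 1, with −0.57 ± 0.60. Week 3 replicate 1 was far below the other 7 libraries, and the list's sum was 5446 CPM there against 21319 to 36505 CPM in the other week 3 libraries and 17599 to 40525 CPM at day 1. MiR-150-5p of lymphocytes held 1034, 6085, 7723 and 2927 CPM at week 3, against 6106, 3126, 4022 and 2150.0 CPM at day 1, with 0.21 ± 0.57.

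**Figure D3:**
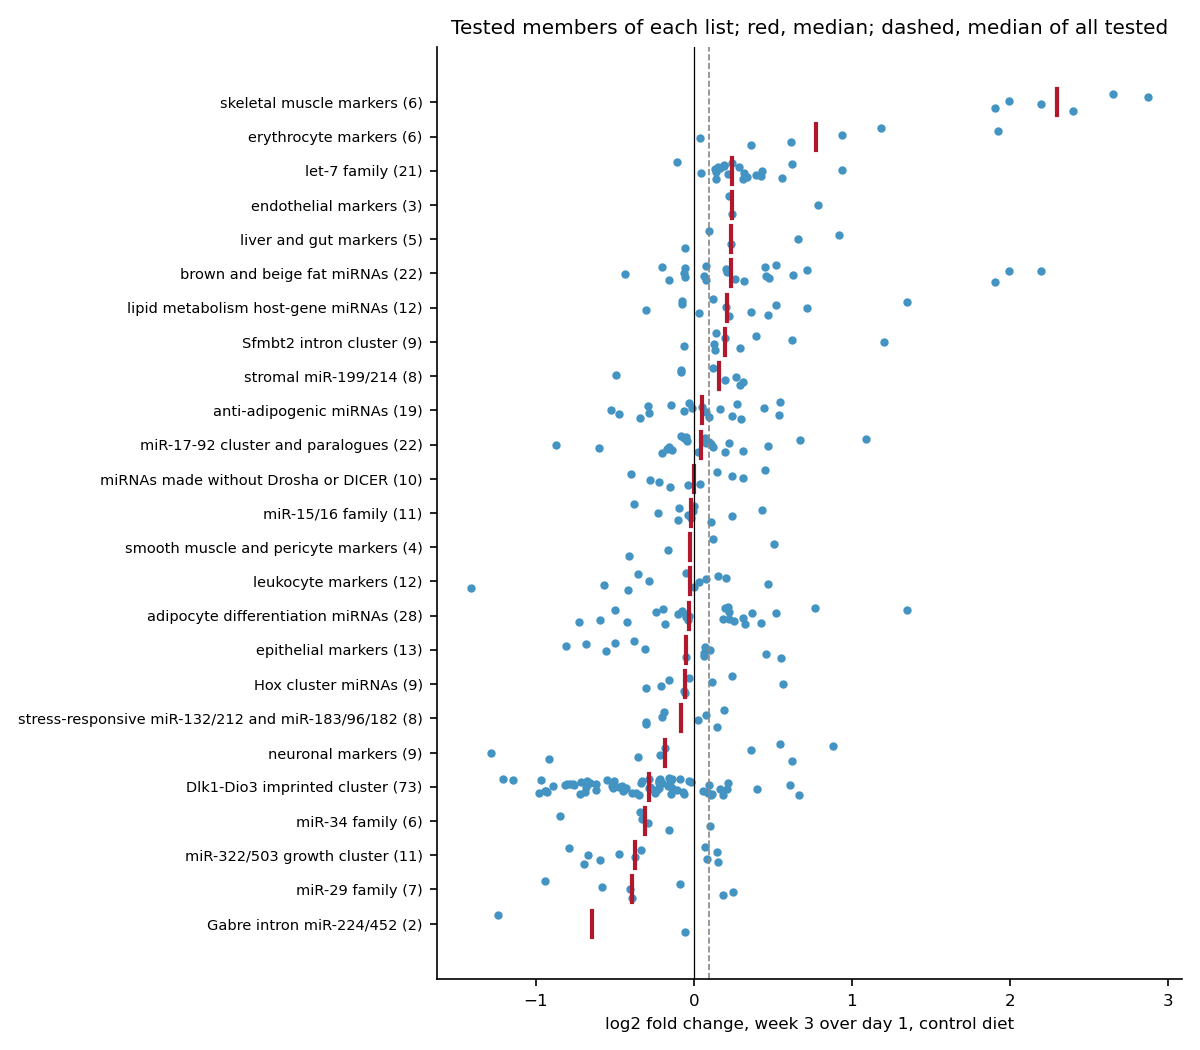
Log2 fold change (week 3 over day 1, control diet) of the tested members of 25 lists, with the number tested in parentheses; red bars are list medians, the dashed line is the median of all tested miRNAs at 0.09, and the vertical spread within a list has no meaning. Skeletal muscle markers lie highest (median 2.30), and the Gabre intron list lies lowest (−0.65). The miR-29 family (−0.39), the miR-322 and miR-503 cluster (−0.37), the miR-34 family (−0.31) and the Dlk1-Dio3 region (−0.28) follow. Other lists also have medians below 0.

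The lists of adipocyte differentiation and of anti-adipogenic miRNAs had medians close to 0, and that of brown and beige fat miRNAs lay higher. Of 28 tested miRNAs linked to adipocyte differentiation, 13 had positive and 15 negative fold changes (median −0.03, with −0.06 without week 3 replicate 1 and 0.09 without day 1 replicate 3). Within it miR-148a-3p held 175215, 145708, 110614 and 257432 CPM at week 3, against 143807, 139193, 238964 and 266607 CPM at day 1, with −0.19 ± 0.24; week 3 replicate 4 and day 1 replicates 3 and 4 were high. MiR-107-3p, in an intron of the coenzyme A gene Pank1, held 71.8, 107, 120.4 and 87.6 CPM at week 3, against 78.5, 69.2, 56.5 and 65.2 CPM at day 1, with 0.52 ± 0.19. MiR-30c-5p held 299, 233, 338 and 234 CPM at week 3, against 223, 194, 228 and 176 CPM at day 1, with 0.43 ± 0.16. Of the 28, miR-30c-5p alone (1) had all week 3 libraries above day 1, and 2, miR-26b-5p and miR-30e-5p, had all of them below, where 3.76% of all tested miRNAs lay above and 3.76% below. MiR-30e-5p held 3492, 4096, 3718 and 3834 CPM at week 3, against 4329.7, 4437, 4706 and 4389 CPM at day 1, with −0.24 ± 0.14. Of 19 anti-adipogenic miRNAs, 10 were positive and 9 negative (median 0.05, with −0.06 without day 1 replicate 4 and 0.12 without day 1 replicate 3), and miR-130a-3p, a repressor of human PPARG, had −0.52 ± 0.25 with 198 to 298 CPM at week 3 and 243 to 432 CPM at day 1. Of 22 brown and beige fat miRNAs, 16 were positive and 6 negative (median 0.23, with 0.07 without week 3 replicate 1 and 0.29 without day 1 replicate 4). In that list miR-455-3p, known from brown fat formation, held 248, 266, 208 and 224 CPM at week 3, against 184, 172, 174 and 162 CPM at day 1, without overlap, with 0.45 ± 0.22, and 3 other members are muscle miRNAs of the miR-133 family.

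Medians of the remaining lists moved with single libraries, and for each the lowest and highest value without 1 library is given. The 12 miRNAs hosted by lipid metabolism genes had a median of 0.21 with 9 positive (0.10 without day 1 replicate 2 and 0.24 without week 3 replicate 1). The 7 tested arms of the miR-29 family, which represses collagen genes, had −0.39 with 5 negative (−0.52 without week 3 replicate 3 and −0.28 without day 1 replicate 3), among them miR-29c-3p at −0.40 ± 0.24 with 61.6 to 96.4 CPM at week 3 and 96.1 to 114 CPM at day 1. For the 6 of the miR-34 family the median was −0.31 (−0.45 without week 3 replicate 4 and −0.20 without week 3 replicate 3), for the 3 endothelial miRNAs 0.24 (0.08 without week 3 replicate 1 and 0.36 without week 3 replicate 3), for the 9 neuronal −0.18 (−0.22 without week 3 replicate 3 and −0.08 without day 1 replicate 3), for the 5 liver and gut miRNAs 0.24 (0.05 without week 3 replicate 2 and 0.47 without week 3 replicate 1) and for the 8 stress-responsive miRNAs −0.08 (−0.27 without week 3 replicate 4 and −0.02 without day 1 replicate 4). In the other lists the sign of the median turned when single libraries were left out. The 22 members of the miR-17-92 cluster and its paralogues had 0.05 (−0.17 without week 3 replicate 2 and 0.20 without week 3 replicate 1). The 11 tested arms of the miR-15/16 family had −0.02 (−0.20 without week 3 replicate 3 and 0.09 without day 1 replicate 3). The 9 Hox cluster miRNAs had −0.06 (−0.20 without week 3 replicate 1 and 0.04 without day 1 replicate 2), the 8 stromal miRNAs of the miR-199 and miR-214 list 0.16 (−0.04 without week 3 replicate 4 and 0.28 without week 3 replicate 3) and the 4 smooth muscle miRNAs −0.02 (−0.19 without week 3 replicate 1 and 0.17 without day 1 replicate 3). The 10 miRNAs made without Drosha or without DICER had a median of 0.00, with 5 positive and 5 negative (−0.12 without week 3 replicate 4 and 0.04 without day 1 replicate 3). The 9 tested arms from the Sfmbt2 intron had 0.20 with 8 positive (−0.14 without week 3 replicate 3 and 0.45 without week 3 replicate 1), against −0.28 with 2 positive in the high-fat libraries. No member of these remaining lists was called. Endothelial miR-126a-3p held 118841, 88473, 76950.0 and 103961 CPM at week 3, against 79732, 78683, 90409.6 and 79882 CPM at day 1, with 0.24 ± 0.15; its other arm, miR-126a-5p, had 0 counts in all 24 libraries, so the counting at that hairpin is uncertain.

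Among the high-fat libraries, week 3 over day 1 called 0 miRNAs (0%) by edgeR, and 88 (15.8%) had an unadjusted p under 0.05, 53 higher (9.5%) and 35 lower (6.27%); DESeq2 called 11 and limma-voom 14. The diets shared no library in this contrast. Over the 558 tested miRNAs 407 (72.9%) had the same sign in both diets, with a Pearson r of 0.59 and a Spearman rho of 0.59. Of the 83 with an unadjusted p under 0.05 on the control diet, 77 (92.8%) had the same sign on the high-fat diet. These are descriptions across miRNAs, which are not independent, and libraries of 1 time may share a collection or preparation day. In the high-fat libraries 284 miRNAs (50.9%) had a positive fold change, and week 3 and day 1 did not overlap for 65 (11.6%), of which 41 lay above (7.35%) and 24 below (4.3%). Tested directly, the difference between diets (high-fat minus control) gave 0 calls (0%) by edgeR, DESeq2 and limma-voom. Without adjustment edgeR placed 11 miRNAs (1.97%) under a p of 0.05, of which 5 (0.896%) had a positive and 6 (1.08%) a negative difference, while 252 (45.2%) of all differences were positive.

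Some of the miRNAs with the smallest p for a diet difference were at low levels. Besides miR-452-5p and miR-345-3p, miR-9-5p held 0, 0, 0.125 and 2.73 CPM at week 3, against 0.165, 3.59, 1.71 and 1.39 CPM at day 1, and miR-29b-1-5p held 1.10, 1.5004, 1.25 and 1.27 CPM at week 3, against 2.48, 3.16, 0.760 and 3.58 CPM at day 1. MiR-363-5p held 0.220, 3.96, 2.38 and 2.18 CPM at week 3, against 2.07, 0.431, 0.951 and 0.398 CPM at day 1. For all 3 the control groups overlapped, with no value above 3.96 CPM. MiR-677-5p held 5.29, 18.7, 13.5 and 9.996 CPM at week 3, against 7.61, 8.47, 8.37 and 7.36 CPM at day 1, with a control fold change of 0.59 ± 0.59. On the high-fat diet its fold change was −1.68 ± 0.60, where 1 day 1 library stood at 67.1 CPM. None of these differences passed the adjusted threshold (adjusted p 0.991 each, edgeR).

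**Figure D4:**
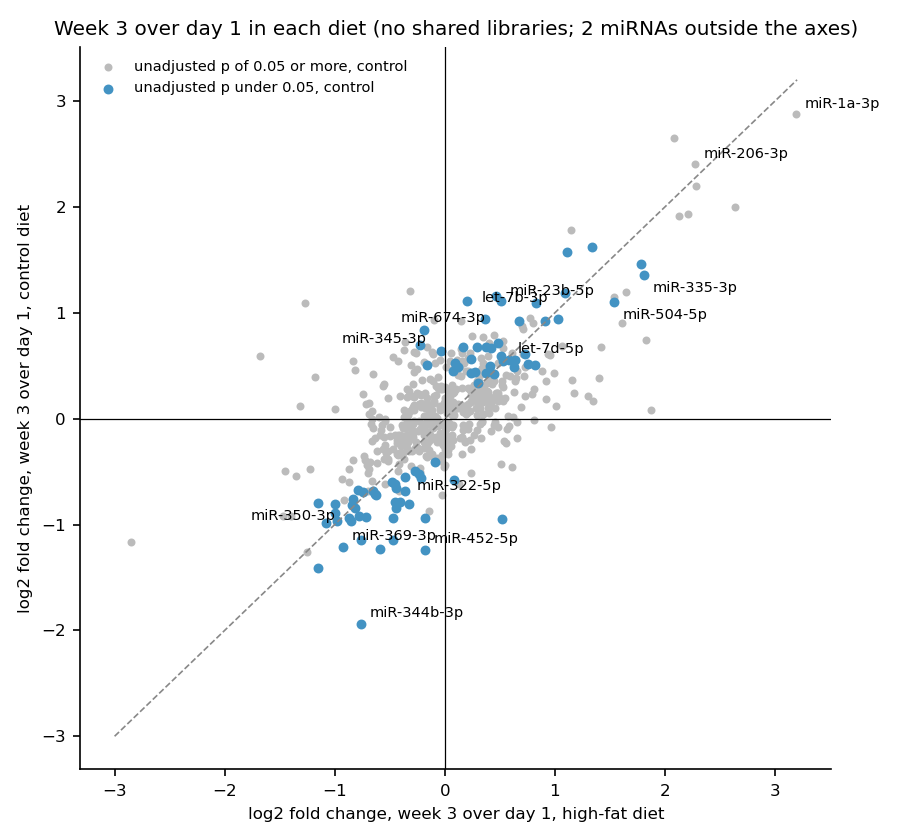
Log2 fold change of week 3 over day 1 on the control diet (y axis) against that on the high-fat diet (x axis) for the tested miRNAs; blue points had an unadjusted p under 0.05 on the control diet, the dashed line marks equal values, and 2 miRNAs lie outside the axes. Of the 83 blue miRNAs, counting any outside the axes, 77 have the same sign in both diets.

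Fold changes were related to the base composition of the mature miRNA. Of the tested miRNAs 489 (87.6%) had a RefSeq mature sequence, and 315 of these averaged 10 CPM or more. Across the 315 the fold change and the GC content had a Pearson r of 0.25 and a Spearman rho of 0.33 on the control diet, and 0.14 and 0.18 on the high-fat diet. The median fold change was −0.14 in the 25 miRNAs with at most 36% GC and 0.25 in the 35 with over 60%. The 38 miRNAs with an unadjusted p under 0.05 and higher values had a median GC of 55.8%, the 39 lower ones 40.9%, and all with a sequence 47.8%. In single libraries the slope of log2 CPM on GC, per 10 points of GC, was 0.0937, 0.0456, 0.0234 and −0.00545 at week 3, against −0.0385, −0.0660, −0.137 and −0.0996 at day 1. The groups did not overlap. The mean was 0.0393 ± 0.0418 at week 3 and −0.0853 ± 0.0426 at day 1 (SD, n = 4 each), a difference of 0.125. On the high-fat diet the mean was 0.0262 ± 0.0351 at week 3 and −0.0402 ± 0.0405 at day 1 (SD, n = 4 each), a difference of 0.0664. The slopes were computed after the relation of fold change with GC had been seen in the same libraries, and they describe that relation in another form, so no test is given.

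With this trend removed from each library, a setting chosen after seeing the data, no miRNA was called and 67 had an unadjusted p under 0.05, 54 of them among the 83. MiR-452-5p then had a fold change of −1.21 (adjusted p = 0.0711, edgeR) and miR-322-5p −0.69 (adjusted p = 0.125, edgeR). The let-7 median was 0.28 and the Dlk1-Dio3 median −0.40. Same-sign fold changes in both diets numbered 404 (72.4%), with a Pearson r of 0.58. The source of the GC trend was not tested, and no source used here gives the libraries' preparation days.

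**Figure D5:**
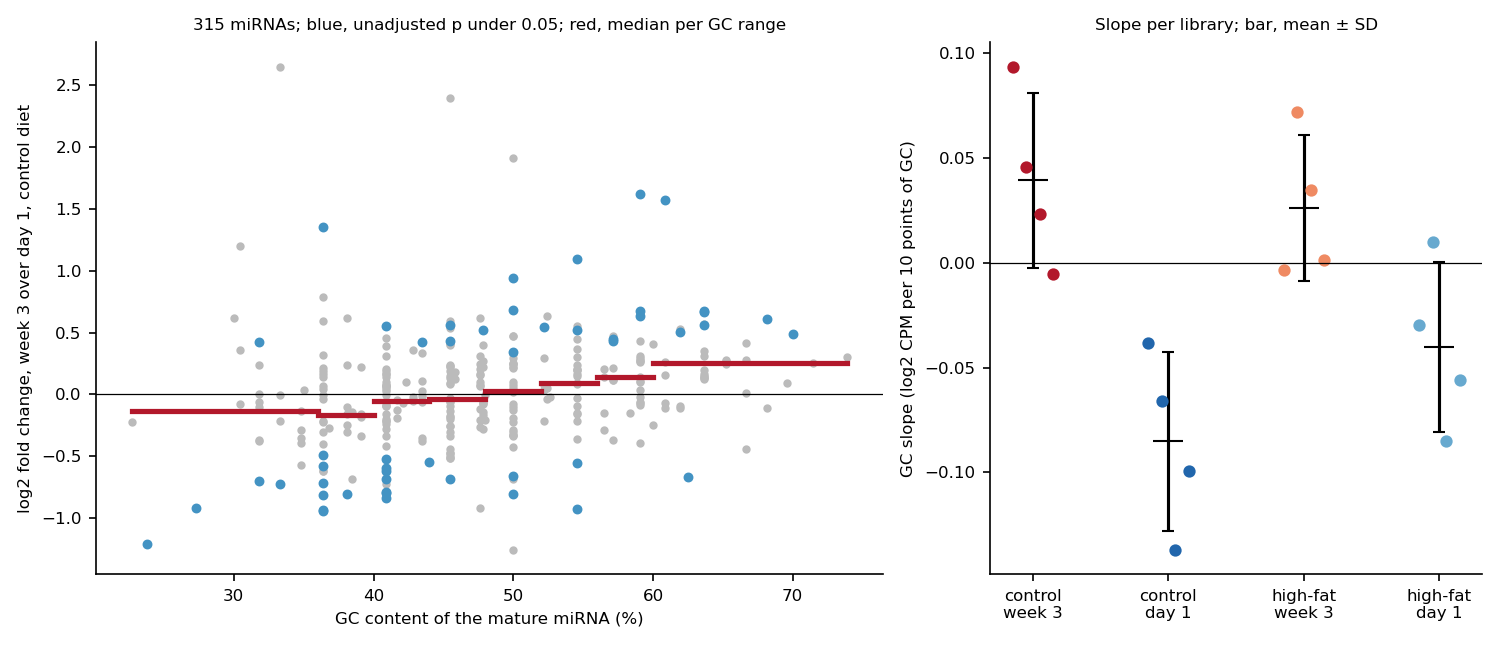
Left, log2 fold change (week 3 over day 1, control diet) against GC content (percent) of the mature miRNA for 315 miRNAs, with blue for an unadjusted p under 0.05 and red for the median of each GC range, which runs from −0.14 at the low end to 0.25 at the high end. Right, GC slope (log2 CPM per 10 points of GC) of each library by group with the mean ± SD of 4; all week 3 control libraries lie above all day 1 control libraries.

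The arms of a hairpin often leaned the same way. For 167 hairpins both arms were tested, and 110 (65.9%) had the same sign, with a Pearson r of 0.46 across hairpins. Over all tested miRNAs 56.8% of fold changes were positive and 43.2% negative, so unrelated arms would also share a sign in many pairs. Hairpins within a cluster are not independent, and the share of same signs was not tested. In 6 hairpins both arms had an unadjusted p under 0.05, and in all 6 the sign was shared: let-7b, let-7d, miR-139 and miR-3061 were positive, and miR-141 and miR-377 were negative. For the called miR-322-5p the other arm stayed near 0, and for miR-369-3p, miR-350-3p and miR-674-3p the other arms had fold changes of −0.13, −0.02 and 0.09. The 95% interval of the fold change stayed within 2-fold in either direction for 302 of the 558 miRNAs (54.1%), and 33 (5.91%) had an absolute log2 fold change of 1 or more.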

How the data were processed

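Small RNA was sequenced from subcutaneous adipose tissue of mice. Per the labels' protocols, RNA came from a TRizol extraction and NEBNext small RNA reagents were used for the libraries. The authors deposited 1 table of raw read counts per miRNA for 24 libraries in 6 groups of 4 (2 diets, 3 times); FastQC, Trim Galore, Bowtie2, featureCounts and the mm10 build are named, without versions, in the submitters' processing notes. No source used here says how reads from multi-copy miRNAs were counted.

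Counts were analysed with edgeR 4.0.16 in R 4.3.3 (TMM scaling, robust quasi-likelihood fit, 6 group means over all 24 libraries, 18 residual degrees of freedom, biological coefficient of variation 0.359). MiRNAs were filtered by filterByExpr (minimum count 10, minimum total 15), and the untested miRNAs held 0.0179% of the counts. P-values were adjusted by Benjamini-Hochberg over the 558 tested miRNAs. No pair of replicate libraries agreed within sampling noise (lowest chi-square per degree of freedom 226 at week 3 and 362 at day 1). Floors and intervals cover counting or library spread as fitted, and reads without molecular identifiers are not independent molecules. Sequences came from RefSeq (GRCm38.p6) and hairpin locations from the GENCODE annotation of the same assembly. The fit was also run on counts simulated from the means and spread of these libraries without a batch effect, and its outcome is not given here.

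The members and lists were chosen with earlier results of these data known. The rule for named miRNAs took those past the threshold, the 5 with the smallest p in a direction with fewer than 5 calls, the 5 most abundant, the 2 most abundant tested members and called members of each list, the other arms of named miRNAs, and for the diet difference 3 miRNAs per direction by smallest p; members it took that are not described here are covered by the list counts. Further miRNAs named in the report, such as miR-351-5p, miR-26b-5p, miR-139-5p and the Dlk1-Dio3 examples, were chosen after their values were seen. Alternatives were other scalings, other filters, DESeq2 1.42.0, limma-voom 3.58.1, a fit of the contrast's libraries alone, a replicate block, leaving out each library (with the filter applied again, so lists can gain or lose members), and removal of a GC trend; this removal and the GC slopes were chosen after seeing the data.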

Additional observations from a re-analysis of the deposited data

Results flagged for a closer look

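In 146 groups of 4 libraries, 11 values stood apart from the other 3 of their group by a gap past Dixon's 95% limit, where chance gives about 1 in 20 groups. Of the called miRNAs, miR-322-5p had 315 CPM in week 3 replicate 4, with 199 CPM in the nearest library. MiR-376c-3p had 10.995 CPM in day 1 replicate 1, with 20.0 CPM nearest. Both arms of miR-141 had such a library, miR-141-5p with 32.5 CPM in week 3 replicate 4 (nearest 18.5 CPM) and miR-141-3p with 413 CPM in day 1 replicate 1 (nearest 687 CPM). MiR-23b-5p had 2.46 CPM in week 3 replicate 2, below the nearest at 4.51 CPM. Week 3 replicate 1 was the highest of its group for miR-504-5p with 53.3 CPM (nearest 25.9 CPM), for miR-486a-5p with 338 CPM (nearest 166 CPM) and for miR-486b-5p with 124 CPM (nearest 53.5 CPM). MiR-486b-5p also had a high day 1 library, replicate 4 with 53.5 CPM (nearest 23.8 CPM). MiR-126a-3p had 90409.6 CPM in day 1 replicate 3 (nearest 79882 CPM). MiR-9-5p had 2.73 CPM in week 3 replicate 4, with 0.125 CPM in the nearest library.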

How the results depend on the processing

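The count of called miRNAs on the control diet, 2 in the report, was also 2 with RLE size factors, with library totals alone and with scaling without the 5 most abundant miRNAs. It was 0 with no filter on low counts, 1 with a mean of at least 10 CPM, 6 with DESeq2 (1 higher, miR-345-3p), 4 with limma-voom, 0 with only the 8 libraries of the contrast and 0 with the GC trend removed. Unadjusted calls numbered 99, 54, 87, 112, 73 and 67 in these settings. Leaving out single libraries gave 0 to 4 calls: 0 without week 3 replicate 1 or 2 or day 1 replicate 2 or 3, 1 (miR-452-5p) without week 3 replicate 3, 1 (miR-322-5p) without week 3 replicate 4, and 4 without day 1 replicate 1. On the high-fat diet, with 0 calls in the report, counts were 3 without the 5 most abundant miRNAs in the scaling, 1 with no filter, 3 at a mean of at least 10 CPM, 11 with DESeq2, 14 with limma-voom, 1 with its own libraries alone, and 0 to 2 without single libraries. The diet difference gave 0 calls in every setting run, with 6 to 50 unadjusted. The causes of these shifts were not tested.

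Same-numbered libraries of week 3 and day 1 did not deviate together (correlations of −0.34, −0.03, 0.01 and −0.09 over miRNAs). Whether the numbers pair the samples is not stated in the labels, and these correlations cannot decide it. The replicate block gave 0 calls in each diet and 0 for the difference.

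Of the values for named miRNAs under the alternatives, 25 changed sign, 18 lost and 7 gained significance, and 1236 kept both. The sign changes were in miRNAs whose reported fold changes were at most 0.21 in size. MiR-322-3p was −0.023 with scaling without the 5 most abundant and −0.0080 with no filter. MiR-451a was −0.037 and −0.018 in those settings, −0.0063 at a mean of at least 10 CPM and −0.052 with limma-voom. MiR-224-5p was 0.022 with the GC trend removed. Without single libraries the ranges were −0.20 to 0.072 for miR-224-5p, −0.10 to 0.20 for miR-322-3p, −0.50 to 0.024 for miR-381-3p, −0.0019 to 0.20 for let-7i-5p, −0.34 to 0.18 for miR-451a, −0.26 to 0.48 for miR-150-5p, −0.10 to 0.49 for miR-143-3p and −0.35 to 0.0087 for miR-99a-5p.

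With 4 libraries a group and a biological coefficient of variation of 0.359 between libraries, small fold changes were not detectable, and levels under about 0.661 CPM could not be told from 0 in every library.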
